A study of Mus musculus with 14 samples.

Results

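Gucy2e and Gucy2f encode the membrane guanylate cyclases of photoreceptors, Guca1a and Guca1b encode their calcium-sensing activators, and Rd3 encodes a protein that binds the cyclases. These 5 genes were chosen by name as a functional unit, with earlier results of these data known. All were found among the 24421 genes counted by RNA-seq. The open-chromatin elements of 200 bp that overlapped any of the 5 genes extended by 50 kb on each side were taken with them, which gave 36 of 53204 elements. Photoreceptors were sorted from dissociated retinas of C57BL/6 mice 8 weeks old, and open chromatin was profiled by ATAC-seq, in which a transposase inserts adapters into accessible DNA. Rods came from Nrl-eGFP mice, whose GFP is driven by the promoter of the rod gene Nrl. Photoreceptors of Nrl-eGFP;Nrl-/- mice, which lack the rod transcription factor NRL and stand in for blue cones, are called Nrl-/- photoreceptors here. Green cones came from Opn1mw-GFP mice, whose GFP marks cells that use the middle-wavelength opsin gene, and were passed through the sorter either a single time or again. For a library of green cones sorted a single time, the study's sample list gives the Nrl-eGFP;Nrl-/- line. Its deposited label as green cones was used here. There were 2 ATAC-seq libraries for each of rods, Nrl-/- photoreceptors and both kinds of green cone sort. RNA was measured in 3 libraries of rods and 3 of Nrl-/- photoreceptors, and not in green cones. The sorts used male mice, except that each double-sorted green cone sort also included female tissue, and Gucy2f lies on the X chromosome. The part of sex in its values was not tested.

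In the dark, photoreceptor guanylate cyclases make the cyclic GMP that holds cation channels of the outer segment open. Light activates a phosphodiesterase that destroys cyclic GMP, the channels close, and calcium in the outer segment falls. The activator proteins, GCAP1 from Guca1a and GCAP2 from Guca1b, sense that fall and stimulate the cyclases, which restores cyclic GMP and ends the light response. RD3 is needed for the cyclases to reach the outer segment and holds them inactive on the way. Loss of the Gucy2e cyclase or of RD3 impairs photoreceptors, and loss of RD3 leads to their degeneration.

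Each gene had an element at a start site, and Gucy2f-110 lay wholly upstream of its own. The part of each element upstream of that start is shown, because the promoters differed in how far rods exceeded cones. Start sites are those of curated RefSeq transcripts. The gene spans printed below reach further 5', so the 5 stretches lie inside them. Elements are named by the gene and the distance in bp from its nearest start site to the centre of the element. A minus sign stands for upstream, and coordinates are of GRCm38/mm10. Rd3 has 2 start sites, at 191977370 and 191978254. Its elements with a minus sign are measured from the first, and those with a plus sign from the second. Gucy2e lies at chr11:69218117-69237279 on the minus strand, Gucy2f at chrX:142079286-142197276 on the minus strand, Guca1a at chr17:47394557-47413514 on the minus strand, Guca1b at chr17:47384694-47392967 on the plus strand, and Rd3 at chr1:191956490-191988282 on the plus strand. Guca1a and Guca1b are neighbours whose 3' ends face each other, and their windows held 13 elements between them. The 5 stretches are chr11:69237023-69237180, chrX:142196946-142197145, chr17:47400607-47400752, chr17:47385230-47385392 and chr1:191977241-191977369 in the order printed, each 5' to 3' on the strand of its gene. Capitals mark exact matches, on either strand, to the searched letters CTAATCC or CTAAGCC of the homeodomain class that includes CRX, or AGGTCA of nuclear receptors.
Gucy2e-58: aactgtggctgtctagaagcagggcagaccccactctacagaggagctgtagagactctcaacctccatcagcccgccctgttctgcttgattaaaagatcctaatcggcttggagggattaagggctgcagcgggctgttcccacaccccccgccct
Gucy2f-110: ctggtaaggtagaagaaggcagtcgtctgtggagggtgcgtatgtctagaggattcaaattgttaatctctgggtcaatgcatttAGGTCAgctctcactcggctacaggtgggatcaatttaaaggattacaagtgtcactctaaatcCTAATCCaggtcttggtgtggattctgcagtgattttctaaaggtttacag
Guca1a-46: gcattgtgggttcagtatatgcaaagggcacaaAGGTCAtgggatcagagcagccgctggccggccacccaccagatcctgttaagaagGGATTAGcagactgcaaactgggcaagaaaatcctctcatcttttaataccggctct
Guca1b-64: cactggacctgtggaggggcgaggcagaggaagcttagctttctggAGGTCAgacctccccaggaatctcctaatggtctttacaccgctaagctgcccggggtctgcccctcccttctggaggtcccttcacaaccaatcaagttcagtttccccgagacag
Rd3-30: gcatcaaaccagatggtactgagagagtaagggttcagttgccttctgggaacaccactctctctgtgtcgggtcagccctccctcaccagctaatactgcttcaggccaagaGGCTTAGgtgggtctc

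The letters CTAATCC occurred in the Gucy2f and Guca1a promoters, and CTAAGCC in that of Rd3. AGGTCA occurred in those of Gucy2f, Guca1a and Guca1b, and the Gucy2e promoter held none of the letters searched. Over all 36 elements, CTAATCC was found in 4 (11.1%), against 7.61% of all 53204 elements. AGGTCA was found in 7 (19.4%), against 14.9% of all elements, and these 7 were at Guca1a and Guca1b or at the Gucy2f promoter. CTAAGCC was in 3 elements (8.33%, against 5.61% of all) and TAATTA, of other homeodomains, in 1 (2.78%, against 4.71%). TGCTGA, a partial recognition site of MAF proteins such as NRL, was in 8 (22.2%, against 15.9%), and TGANTCA of bZIP proteins was in 2 (5.56%, against 6.28%). Both TGANTCA elements also held TGCTGA at overlapping bases. The letters CATATG of bHLH proteins were in 0 of the 36, against 2.50% of all elements. A match to these letters is a description of the sequence and does not show that a protein binds there.

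Nrl RNA was 599, 845 and 745 CPM in the rods, against 34.5, 39.3 and 24.6 CPM in the Nrl-/- photoreceptors, where CPM are counts scaled by TMM to a common library size of 1000000. RNA libraries held 18376800 to 26312900 reads in genes and ATAC-seq libraries 1062400 to 5770080 reads in elements, the shallowest being the double-sorted green cones. The cell labels were checked against markers in the RNA. All 6 rod markers, which include the knocked-out gene Nrl itself, rose and all 6 cone markers fell in rods over Nrl-/- photoreceptors. The summed level of the cone markers was 534 to 547 CPM in rods against 76613 to 86209 CPM in Nrl-/- photoreceptors. Bipolar markers summed to 76.1 to 99.1 CPM in rods, against 1364 to 1557 CPM in Nrl-/- photoreceptors, with 1 of 6 called higher and 2 lower in rods, and of this sum Cabp5 alone was 1402 CPM in Nrl-/- photoreceptors. Microglial markers summed to 3.18 to 5.12 CPM in rods, against 19.8 to 40.1 CPM in Nrl-/- photoreceptors, with 4 of 6 lower in rods. Müller glia markers summed to 40.0 to 59.6 against 29.6 to 45.7 CPM and amacrine markers to 107 to 128 against 69.3 to 83.8 CPM, with 0 called in either list. Nearly all of the amacrine sum was Slc6a9, with a rod mean of 117 CPM against an Nrl-/- mean of 76.1 CPM. Each remaining amacrine marker had a mean of at most 1.77 CPM in either cell type. Horizontal, ganglion and pigment epithelium markers each summed to at most 9.55 CPM in any library, and of these 1 horizontal and 1 ganglion marker were lower in rods. The part of these other cell types in the levels below was not tested. An element in an intron of Nrl, which has 0 counts in both Nrl-/- libraries, read 100 and 107 CPM in rods, 43.0 and 31.0 in single-sorted green cones and 17.1 in both double-sorted ones. All green cone libraries thus had reads at an element of a rod gene, and the part of rod DNA in their values was not tested.

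At the RNA level, Gucy2f and Guca1b passed the test against a 2-fold change, and their partners Gucy2e and Guca1a did not. Those that passed were lower in Nrl-/- photoreceptors to unlike depths, at 0.485% of the rod mean for Gucy2f and 10.0% for Guca1b. Gucy2f and Guca1b were higher in rods by 206-fold and 9.96-fold, and Gucy2e, Guca1a and Rd3 did not pass the test against a 2-fold change, with log2 differences of 0.95, 0.38 and -0.98 for rods over Nrl-/- photoreceptors. Thus 2 of the 5 genes were called higher in rods, where 6.88% of the 12327 tested genes were, and 0 were called lower, where 13.3% were. At an unadjusted p under 0.05 and with DESeq2, the count of lower genes was also 0. The test was edgeR's quasi-likelihood test against a log2 fold change of 1, with Benjamini-Hochberg adjustment over all tested genes. In all 5 genes the 3 rod libraries did not overlap the 3 Nrl-/- libraries, which was also so for 33.2% of tested genes with rods above and 33.8% with rods below. P-values measure the spread between these libraries, which may be technical. A pair of the rod RNA libraries carries the same number of sorted cells in the study's sample list, and whether they came from separate sorts is not stated. In such bulk samples fewer cells of a type and less RNA per cell cannot be told apart.

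**Figure D1:**
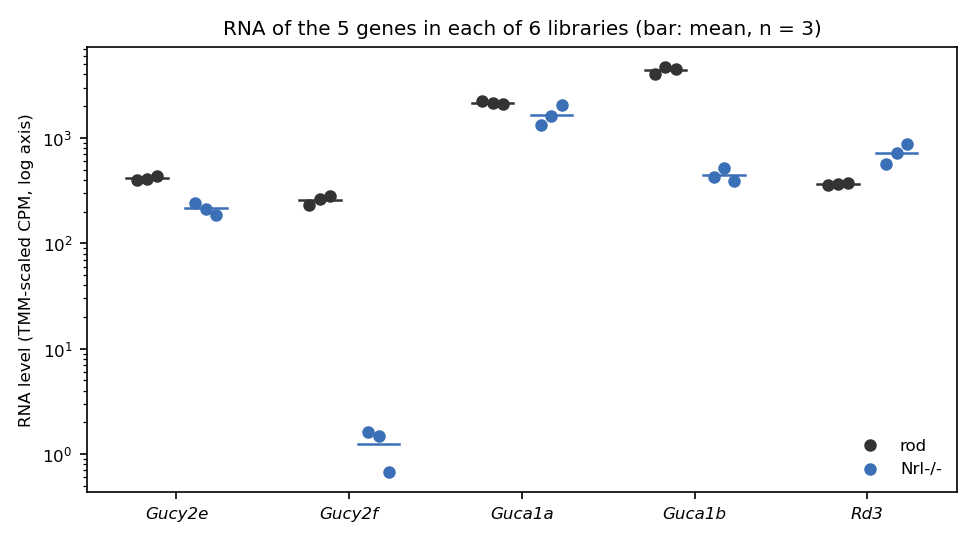
RNA level of the 5 genes in CPM on a log axis, for 3 rod and 3 Nrl-/- libraries, with a bar at each mean. Gucy2f sits at 231 to 282 CPM in rods and at 0.674 to 1.62 CPM in Nrl-/- photoreceptors, while Guca1a ranges from 1341 to 2254 CPM over all 6 libraries.

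Among the cyclases, Gucy2e, the main cyclase of cones and also active in rods, read 402, 408 and 433 CPM in rods, against 242, 214 and 187 CPM in Nrl-/- photoreceptors. All rod libraries lay above all Nrl-/- libraries, at 414 ± 16.6 against 214 ± 27.7 CPM (SD, n = 3 each). The log2 difference of 0.95 (SE 0.12) did not pass the test against a change of 1 (edgeR adjusted p = 1.00), and did pass a test against 0 (edgeR adjusted p = 3.92e-05), as did 29.5% of tested genes in that direction.

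Gucy2f, the second retinal cyclase, which works beside the first in rods, read 231, 266 and 282 CPM in rods. In Nrl-/- photoreceptors it fell to 1.62, 1.48 and 0.674 CPM, from 41, 38 and 18 reads, or 0.485% of the rod mean. The log2 difference was 7.69 (SE 0.24, edgeR adjusted p = 2.63e-10). For comparison, the Nrl-/- level was 0.210% of rods for the transducin gene Gnat1 and 0.173% for Cnga1, whereas Pde6a, a phosphodiesterase subunit, kept 11.7%.

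Of the activators, Guca1a, encoding GCAP1, read 2254, 2145 and 2084 CPM in rods, against 1341, 1608 and 2041 CPM in Nrl-/- photoreceptors. The groups abutted without overlap, and the Nrl-/- libraries varied more, at 1663 ± 353 against 2161 ± 86.4 CPM (SD, n = 3 each). The log2 difference of 0.38 (SE 0.15) passed neither the test against 1 nor that against 0 (edgeR adjusted p = 1.00 and 0.0506).

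Guca1b, encoding GCAP2, read 4064, 4685 and 4537 CPM in rods. In Nrl-/- photoreceptors it read 424, 516 and 394 CPM, so that every rod library was far above every Nrl-/- library and 10.0% of the rod mean was left. The log2 difference was 3.32 (SE 0.15, edgeR adjusted p = 2.28e-08). The Nrl-/- level of Guca1b was 445 ± 63.6 CPM (SD, n = 3), far above a trace.

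Rd3, whose protein accompanies the cyclases to the outer segment, stood at 357, 363 and 373 CPM in rods, against 568, 720 and 874 CPM in Nrl-/- photoreceptors. Its rod libraries were nearly equal, at 364 ± 8.06 CPM, and all lay below the Nrl-/- libraries, at 721 ± 153 CPM (SD, n = 3 each). The log2 difference of -0.98 (SE 0.15) missed the test against a change of 1 (edgeR adjusted p = 0.843) and passed the test against 0 (edgeR adjusted p = 1.43e-04), as did 31.4% of tested genes in that direction. Without the third Nrl-/- library the difference was -0.83, and without the first it was -1.12.

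The spread among Nrl-/- libraries moved with the length of transcripts. Over genes with an exon length of at least 8 kb, the first Nrl-/- library was 0.28 above its group's mean in median log2 level and the third was 0.15 below it, while over genes under 2 kb the first was 0.13 below and the third 0.12 above. Between the cell types, the median log2 difference of rods over Nrl-/- photoreceptors was -0.09 for 3142 genes under 2 kb and 0.43 for 654 genes of at least 8 kb. The exons of Gucy2e span 8331 bp and those of Gucy2f 9998 bp, against 896 bp for Guca1a, 1668 bp for Guca1b and 4267 bp for Rd3. Gucy2e was highest in the first Nrl-/- library and lowest in the third, and Guca1a and Rd3 were the reverse. The part of transcript length in these levels was not tested.

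Per length, in CPM per kb of exon (RPKM), the activators in rods stood at 2655 ± 194 for Guca1b and 2412 ± 96.4 for Guca1a (SD, n = 3). Their library ranges overlapped, so the order of these neighbours is not resolved by exon length. Rd3 followed at 85.4 ± 1.89, Gucy2e at 49.7 ± 1.99 and Gucy2f at 26.0 ± 2.59 RPKM in rods, with no overlap between these neighbours. In Nrl-/- photoreceptors the order was Guca1a at 1856 ± 394, Guca1b at 267 ± 38.1, Rd3 at 169 ± 35.8, Gucy2e at 25.7 ± 3.33 and Gucy2f at 0.126 ± 0.0511 RPKM, again with no overlap between neighbours. With coding length in place of exon length, Rd3 moved above Guca1b in Nrl-/- photoreceptors, at 1226 against 734 RPKM, and in rods Guca1b was 7308 ± 535 against 3548 ± 142 RPKM for Guca1a (SD, n = 3), with no overlap.

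The ratio of partners within a library does not depend on library scaling. Gucy2f made up 36.5%, 39.5% and 39.4% of the reads of both cyclases in rods and 0.663%, 0.689% and 0.359% in Nrl-/- photoreceptors. Guca1b made up 64.3%, 68.6% and 68.5% of the activator reads in rods and 24.0%, 24.3% and 16.2% in Nrl-/- photoreceptors. The groups did not overlap for either pair. By reads Guca1b was the larger activator in rods and Guca1a in Nrl-/- photoreceptors, but per exon length Guca1b was 49.2% in the first rod library, below Guca1a. Per length, the share of Guca1b was 52.4% ± 2.74 in rods and 12.9% ± 3.01 in Nrl-/- photoreceptors, and that of Gucy2f was 34.2% ± 1.61 and 0.476% ± 0.153 (SD, n = 3 each).

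The log2 ratio of Guca1a to Guca1b reads was -0.85, -1.13 and -1.12 in rods and 1.66, 1.64 and 2.37 in Nrl-/- photoreceptors. The rod mean minus the Nrl-/- mean was -2.92, with an exact two-sided permutation p of 0.10, the smallest that 3 against 3 libraries allow. For Gucy2e to Gucy2f it was 0.80, 0.62 and 0.62 in rods and 7.23, 7.17 and 8.12 in Nrl-/- photoreceptors, a difference of -6.83 with the same exact permutation p of 0.10. These 2 pairs were the ones tested, and neither p can reach 0.05 in this design. Summed over partners, cyclase RNA was 633, 674 and 715 CPM in rods against 244, 215 and 188 CPM in Nrl-/- photoreceptors. Activator RNA summed to 6318, 6830 and 6621 CPM in rods, against 1765, 2124 and 2435 CPM in Nrl-/- photoreceptors, so that both roles took a larger share of the RNA in every rod library.

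**Figure D2:**
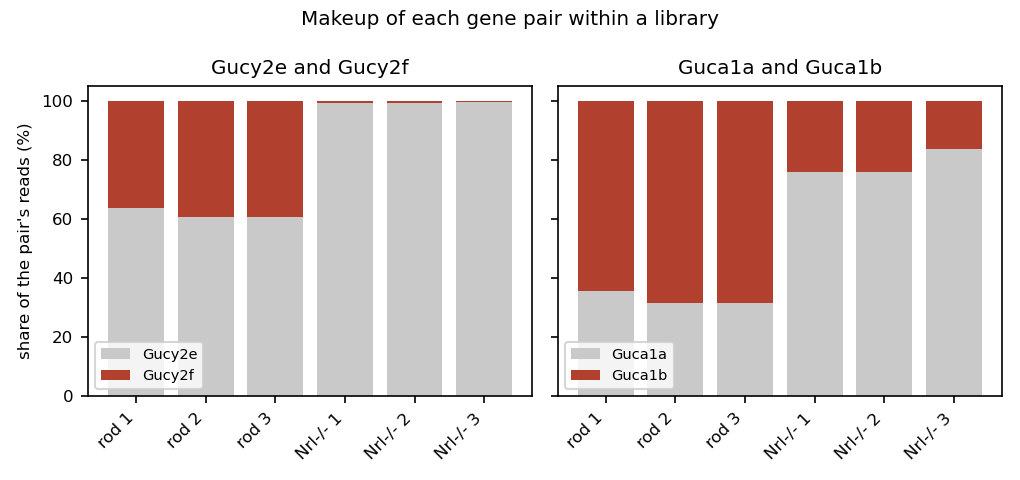
Share of reads, in percent, taken by each member of the cyclase pair and of the activator pair in each of 6 RNA libraries. Gucy2f drops from 36.5% to 39.5% of cyclase reads in rods to below 1% in Nrl-/- photoreceptors, and Guca1b drops from 64.3% to 68.6% of activator reads to 16.2% to 24.3%.

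Among tested genes with a mean of at least 10 CPM, the 3 genes nearest to each member in pattern over the 6 libraries were found by the root mean square distance of centred log2 CPM, among 8093 candidates. Nearest to Gucy2e were Rock1 (0.02 log2 units), Rbm5 (0.04) and Spen (0.04). Plekha2 (0.22), Aqp1 (0.26) and Nipal1 (0.36) were nearest to Gucy2f, at larger distances. For Guca1a these were Tmem208, Eif5 and Dcaf13 (0.05 to 0.06), for Guca1b 1110007C09Rik, Gpsm2 and Mllt3 (0.13 to 0.14), and among the 3 nearest to Rd3 were Thap11 and Cystm1 (both 0.07). Plekha2 was at 199 CPM in rods, against 0.819 in Nrl-/- photoreceptors, and Gpsm2 at 1368 and 121 CPM.

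The lists of related genes that follow are to be read beside all tested genes, of which 6.88% were higher and 13.3% lower in rods, with a median log2 difference of 0.01. The other guanylate cyclases were at most traces. Of 9 such genes 4 had enough reads to test, 0 were higher and 2 lower in rods (0 higher also at an unadjusted p under 0.05 and with DESeq2), with a median log2 difference of -1.91, and together they summed to 4.96 to 8.96 CPM in rods, against 15.4 to 27.8 CPM in Nrl-/- photoreceptors. Npr2, a natriuretic peptide receptor, had the largest change, at 0.336 CPM in rods, against 2.43 CPM in Nrl-/- photoreceptors (log2 -2.84, SE 0.46, edgeR adjusted p = 0.00248). Gucy2d, which in mice encodes an olfactory cyclase and is not the counterpart of the human retinal gene of that name, had 0 reads in all 6 libraries. Rd3l, a relative of Rd3 picked after its values were seen, was 17.1 CPM in rods, against 151 CPM in Nrl-/- photoreceptors (log2 -3.15, SE 0.17, edgeR adjusted p = 1.09e-07).

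Among 14 other neuronal calcium sensors and calmodulins, relatives of the GCAPs in their calcium-binding fold, 10 were tested, 1 was higher and 3 lower in rods, and the median log2 difference was -0.58. Recoverin, Rcvrn, a calcium sensor of photoreceptors, was 2904 ± 781 CPM in rods, against 1126 ± 135 CPM in Nrl-/- photoreceptors (SD, n = 3 each; log2 1.37, SE 0.19, edgeR adjusted p = 0.0475). That call was lost in 7 of 12 alternatives, at adjusted p up to 0.351. Ncs1, a neuronal calcium sensor, was 1.09 against 15.1 CPM (log2 -3.78, edgeR adjusted p = 9.56e-07).

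Of 10 genes that supply GTP, the substrate of the cyclases, 0 were higher in rods (0 also at an unadjusted p under 0.05 and with DESeq2) and 4 were lower, with a median of -1.04. The purine enzyme gene Pnp changed most, at 16.9 against 127 CPM (log2 -2.91, edgeR adjusted p = 2.21e-06), and Guk1, which phosphorylates GMP, was 346 against 970 CPM. Of 14 genes for cyclic GMP targets and calcium extrusion, 11 were tested, and 5 were higher and 5 lower in rods. Those higher were the rod isoforms Pde6a, Pde6b, Cnga1, Cngb1 and Slc24a1, and those lower the cone isoforms Pde6c, Pde6h, Cnga3, Cngb3 and Slc24a2. The rod channel subunit Cnga1 was 2393 against 4.13 CPM (log2 9.18, edgeR adjusted p = 9.05e-11) and the cone subunit Cngb3 6.29 against 1317 CPM (log2 -7.71, edgeR adjusted p = 6.55e-11). The Gucy2f change was thus of the same order as those of the isoform-specific channel subunits. Of 9 genes for transport to the outer segment, 0 were higher (0 also at an unadjusted p under 0.05 and with DESeq2) and 1, Pde6d, a carrier of lipid-modified proteins, was lower, at 84.0 against 257 CPM (log2 -1.61, edgeR adjusted p = 0.00415).

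Near the 5 genes, more elements were called higher than lower in rods, while over all elements more were called lower. Of the 36 elements, 34 were tested for rods against both cone types (double-sorted green cones and Nrl-/- photoreceptors), and 8 were called higher in rods, where 3.98% of 51563 elements were, and 1 lower, where 18.1% were. The median log2 difference was 0.86, against -0.13 over all tested elements. Of the 34, 30 were above 0, a share that was not computed over all elements. Rods were above every cone library at 21 of the 34 and below every one at 3, against 26.8% and 30.2% of all tested elements. Only 3 of the 8 higher calls, at Guca1b-3290, Guca1b-64 and Guca1a+6196, held in all 12 alternatives, and 3 were left when either rod library was omitted. With the study's processed reads as library sizes, 10 of the 36 were higher, and the share of all calls that were higher in rods was 35.0% in place of 18.0%. Calls were at an edgeR adjusted p under 0.1 past a log2 change of 1.

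Against Nrl-/- photoreceptors alone, 8 of 35 tested elements were higher and 1 lower in rods, where 6.38% and 21.0% of all tested elements were. Against double-sorted green cones alone, 11 of 34 were higher and 1 lower, where 6.43% and 18.7% were. These comparisons use the same rod libraries. Of the elements that held in all 12 alternatives above, Guca1b-3290 also kept its call against double-sorted green cones in all 10 alternatives. There the calls of Guca1b-64 and Guca1a+6196 were lost in 5 and 4 of the 10, both also with single-sorted green cones. Between green cones and Nrl-/- photoreceptors, 0 of 29 elements were called in either direction, where 0.0374% and 0.00234% of all were, and edgeR gave 1 element at an unadjusted p under 0.05 and DESeq2 gave 0. With DESeq2, 3, 3 and 2 elements were higher in rods in the 3 comparisons with rods.

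The 4 loci differed in their counts. The 13 elements of Guca1a and Guca1b held 5 higher and 1 lower call of rods against both cone types among 12 tested, with a median log2 difference of 1.29. The Gucy2e locus held 1 higher call among 8 tested elements (median 0.95), the Gucy2f locus 1 among 2 (median 1.28) and the Rd3 locus 1 among 12 (median 0.19). Summed over the 13 elements, accessibility at Guca1a and Guca1b was 679 and 691 CPM in rods, 170 and 293 in double-sorted green cones, 296 and 285 in Nrl-/- photoreceptors and 345 and 299 in single-sorted green cones. At Rd3 the sum was 526 and 562 CPM in rods, against 406 to 507 CPM in the other libraries, so that the loci stood apart in how far rods exceeded the rest. These sums include promoters of other genes. At Rd3 that of Slc30a1, Rd3-70704, had means of 116 CPM in rods, 96.5 in double-sorted green cones and 85.9 in Nrl-/- photoreceptors.

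**Figure D3:**
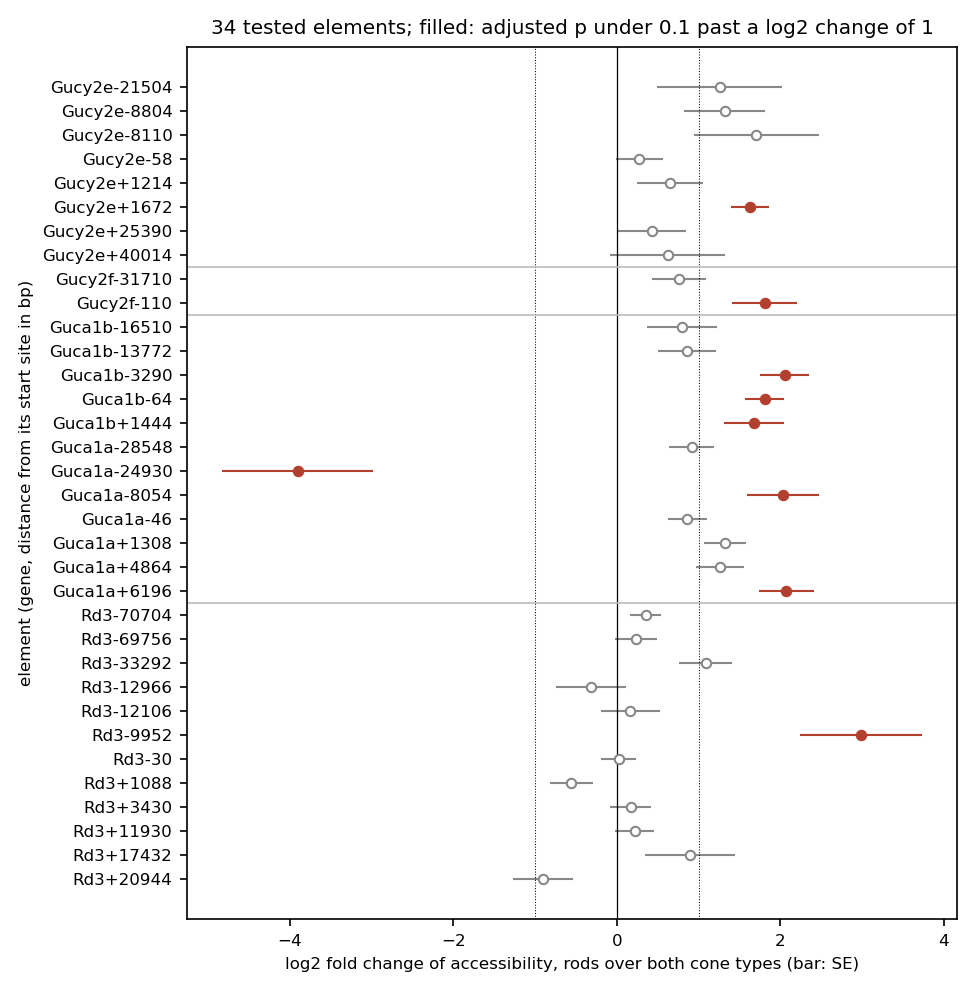
Log2 fold change of accessibility, rods over both cone types, with its SE, for the 34 tested elements in the order of their place along each gene. Filled points, at an adjusted p under 0.1 past a log2 change of 1, are 8 to the right and 1 to the left, and most elements at Rd3 lie near 0.

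Promoters fell into different patterns. The Guca1b promoter, Guca1b-64, read 142 and 150 CPM in rods, 27.2 and 59.3 in double-sorted green cones, 40.6 and 41.1 in Nrl-/- photoreceptors and 66.9 and 64.3 in single-sorted green cones. Rods were above every other library, and the log2 difference of rods over both cone types was 1.81 (SE 0.24, edgeR adjusted p = 0.00835). The Gucy2f promoter, Gucy2f-110, read 35.8 and 35.0 CPM in rods, 3.11 and 13.5 in double-sorted green cones, 14.1 and 9.31 in Nrl-/- photoreceptors and 18.8 and 14.1 in single-sorted ones. Rods were again above all others (log2 1.81, SE 0.40, edgeR adjusted p = 0.0558), but this call was lost in 5 of 12 alternatives, among them DESeq2, each rod library left out, the second Nrl-/- library left out and single-sorted green cones in place of double-sorted ones. Against Nrl-/- photoreceptors alone the log2 difference was 1.64 (SE 0.23, edgeR adjusted p = 0.00618), and that call was lost in 2 of 10 alternatives, with DESeq2 (adjusted p = 0.197) and without the second Nrl-/- library (edgeR adjusted p = 0.194).

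The promoters of the other 3 genes did not pass the test. Gucy2e-58 read 67.9 and 57.0 CPM in rods, 29.5 and 72.8 in double-sorted green cones, 56.7 and 48.8 in Nrl-/- photoreceptors and 47.9 in both single-sorted green cone libraries, so that rods overlapped the cones (log2 0.28, SE 0.28). Rd3-30 overlapped as well, at 95.2 and 107 CPM in rods, 71.5 and 120 in double-sorted green cones, 111 and 96.0 in Nrl-/- photoreceptors and 79.4 and 73.4 in single-sorted ones (log2 0.02, SE 0.21). Guca1a-46 lay in between. It read 88.5 and 86.4 CPM in rods, 32.6 and 45.8 in double-sorted green cones, 62.9 and 48.8 in Nrl-/- photoreceptors and 47.9 and 43.8 in single-sorted ones, with no overlap of rods and cones and a log2 difference of 0.86 (SE 0.23, edgeR adjusted p = 0.804).

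For rods over Nrl-/- photoreceptors, where both assays were run, the promoter log2 difference was 1.82 for Guca1b, 1.64 for Gucy2f, 0.66 for Guca1a, 0.24 for Gucy2e and -0.04 for Rd3. The RNA log2 differences of the same genes were 3.32, 7.69, 0.38, 0.95 and -0.98. The 2 genes called higher in RNA were those with called promoters, the Gucy2f promoter not in every alternative. The RNA order was not that of the promoters, either between these 2 genes or among the others. With 5 genes no relation was computed. The Gucy2f promoter still read 14.1 and 9.31 CPM in Nrl-/- photoreceptors, where its RNA was 0.485% of the rod mean.

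**Figure D4:**
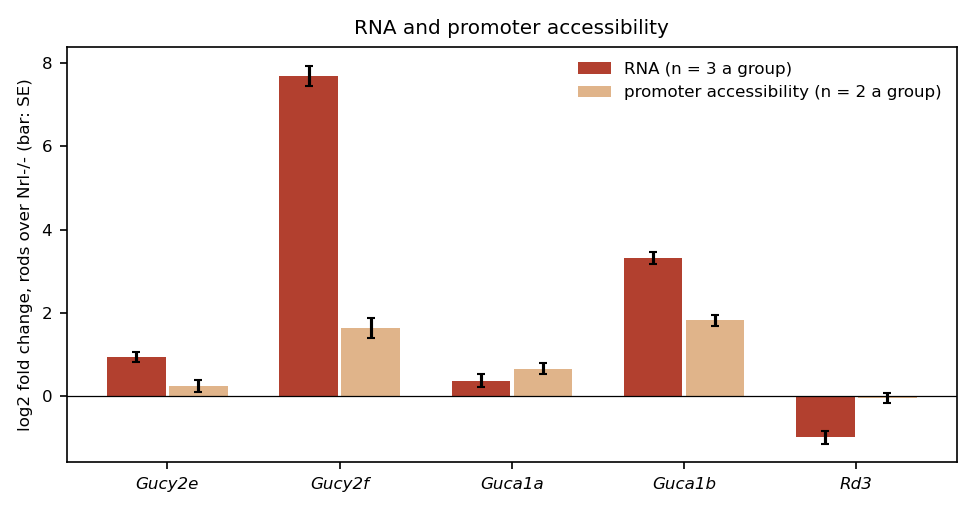
Log2 fold change of rods over Nrl-/- photoreceptors with its SE, for RNA (3 libraries a group) and promoter accessibility (2 libraries a group) of each gene. Gucy2f and Guca1b are at 7.69 and 3.32 in RNA and 1.64 and 1.82 in accessibility, and the other 3 genes lie between -0.98 and 0.95 in both.

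Away from the promoters, 5 elements called for rods against both cone types are shown for their size or direction of change. They are Guca1b-3290 at chr17:47382004-47382203, upstream of Guca1b, and Guca1a+6196 at chr17:47394310-47394509, which lies between the 3' ends of Guca1a and Guca1b. Gucy2e+1672 at chr11:69235251-69235450 lies in an intron of Gucy2e, and Rd3-9952 at chr1:191967318-191967517 lies upstream of the Rd3 start sites used here. Guca1a-24930, the single element that was lower in rods, lies at chr17:47425437-47425636 in an intron of 1700001C19Rik, a gene with 1 read in all RNA libraries together. Each sequence is written 5' to 3' on the strand of the member it is named for, and capitals mark matches on either strand to the letters named above, and to those of MAF and bZIP proteins.
Guca1b-3290: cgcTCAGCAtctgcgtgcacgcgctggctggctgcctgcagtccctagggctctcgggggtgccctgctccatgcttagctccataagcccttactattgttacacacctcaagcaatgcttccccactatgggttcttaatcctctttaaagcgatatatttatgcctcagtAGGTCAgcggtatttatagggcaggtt
Guca1a+6196: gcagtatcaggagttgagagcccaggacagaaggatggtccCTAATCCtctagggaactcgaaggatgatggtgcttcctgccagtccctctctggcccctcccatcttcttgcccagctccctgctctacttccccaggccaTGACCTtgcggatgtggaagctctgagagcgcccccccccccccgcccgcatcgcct
Gucy2e+1672: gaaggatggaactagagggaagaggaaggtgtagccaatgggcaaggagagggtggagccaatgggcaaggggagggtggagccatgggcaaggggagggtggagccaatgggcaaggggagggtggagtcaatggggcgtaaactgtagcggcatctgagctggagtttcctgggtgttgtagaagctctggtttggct
Rd3-9952: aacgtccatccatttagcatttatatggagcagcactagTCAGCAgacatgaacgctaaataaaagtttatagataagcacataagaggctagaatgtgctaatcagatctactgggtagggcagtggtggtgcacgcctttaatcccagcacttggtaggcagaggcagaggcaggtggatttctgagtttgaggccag
Guca1a-24930: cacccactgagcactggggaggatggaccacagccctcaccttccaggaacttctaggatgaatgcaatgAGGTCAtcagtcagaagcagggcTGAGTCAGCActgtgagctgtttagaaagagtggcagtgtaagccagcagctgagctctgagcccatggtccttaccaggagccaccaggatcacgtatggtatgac

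Guca1b-3290 was the brightest of them, at 123 and 128 CPM in rods, 14.8 and 21.6 in double-sorted green cones, 37.7 and 40.9 in Nrl-/- photoreceptors and 48.6 and 32.4 in single-sorted ones. Rods exceeded every other library, with a log2 difference over both cone types of 2.05 (SE 0.30, edgeR adjusted p = 0.00766), or 4.36-fold. Guca1a+6196 read 35.0 and 36.7 CPM in rods, 6.22 and 10.8 in double-sorted green cones, 5.80 and 10.9 in Nrl-/- photoreceptors and 17.6 and 12.3 in single-sorted ones. It was 4.26-fold higher in rods (log2 2.08, SE 0.34, edgeR adjusted p = 0.0114), and holds CTAATCC as well as AGGTCA.

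Further elements at these genes were called less firmly. Guca1a-8054 read 19.6 and 18.1 CPM in rods, against 1.80 to 7.26 CPM in the other 6 libraries (log2 2.03, SE 0.44, edgeR adjusted p = 0.0371), a call lost with DESeq2 and without either rod library. Guca1b+1444, in an intron of Guca1b, read 23.7 and 28.2 CPM in rods, against 4.55 to 15.1 CPM in the others (log2 1.68, SE 0.37, edgeR adjusted p = 0.0719), and this call was lost in 5 of 12 alternatives. In introns of Guca1a, Guca1a+1308 read 115 and 112 CPM in rods against 24.1 to 54.6 CPM, and Guca1a+4864 read 34.6 and 40.5 CPM against 10.1 to 18.9 CPM. Both had rods above all other libraries, with log2 differences of 1.32 (SE 0.26, edgeR adjusted p = 0.156) and 1.26 (SE 0.29, edgeR adjusted p = 0.242), and Guca1a+1308 passed the test against double-sorted green cones alone (log2 1.69, edgeR adjusted p = 0.0406), a call lost in 4 of 10 alternatives, which were DESeq2 and leaving out either rod library or double-sorted green cone library 3. Guca1b-16510, the promoter of the neighbouring gene Mrps10, was also called there (log2 1.74, edgeR adjusted p = 0.0761), at 22.9 and 22.6 CPM in rods, against 6.22 and 7.19 CPM in double-sorted green cones, and that call was lost in 5 of 10 alternatives, those just named and single-sorted green cones.

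Guca1a-24930 had the opposite pattern. It had 2 and 4 reads in rods, or 0.417 and 0.753 CPM, against 14.0 and 18.0 CPM in double-sorted green cones, 5.80 and 2.72 in Nrl-/- photoreceptors and 11.7 and 28.3 in single-sorted ones. Every cone library was above both rod libraries, by a log2 difference of -3.91 for rods over both cone types (SE 0.92, edgeR adjusted p = 0.0211), and this call was lost when either rod library was left out. Against Nrl-/- photoreceptors alone (log2 -2.72, SE 0.76, edgeR adjusted p = 0.0201) it was lost in 4 of 10 alternatives, with DESeq2 among them. It overlapped no rod peak and no Nrl-/- peak, while its fold enrichment over local background was 10.5 in the double-sorted and 6.59 in the single-sorted green cone peak list. The difference between double-sorted green cones and Nrl-/- photoreceptors, a log2 value of 1.97, did not pass the test, and with single-sorted green cones it did, at 2.26 (edgeR adjusted p = 0.0382). The element holds AGGTCA and the overlapping TGANTCA and TGCTGA.

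At Gucy2e the called element was in the gene and not at its promoter. Gucy2e+1672 read 69.1 and 71.4 CPM in rods, 17.1 and 20.7 in double-sorted green cones, 24.4 and 26.8 in Nrl-/- photoreceptors and 39.8 and 30.6 in single-sorted ones. Rods were above all others (log2 1.63, SE 0.23, edgeR adjusted p = 0.0224), and the call was lost in 4 of 12 alternatives, among them each rod library left out. Its neighbour in a coding exon, Gucy2e+1214, read 11.9 and 10.9 CPM in rods, against 4.66 to 8.98 CPM in the others, with a log2 difference of 0.65 that did not pass.

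Upstream of Gucy2e, Gucy2e-8110 had 0 reads in both double-sorted green cone libraries and 11.2 and 10.9 CPM in rods, which is at least 4.41-fold higher in rods, taking 3 reads per library as the limit that 0 reads allow. In Nrl-/- photoreceptors it read 4.97 and 5.90 CPM, and in single-sorted green cones 6.84 and 2.74 CPM. Next to it, Gucy2e-8804 read 23.3 and 26.2 CPM in rods, 1.56 and 7.19 in double-sorted green cones and 10.0 to 15.4 in the remaining 4 libraries. Both were called against double-sorted green cones (edgeR adjusted p = 0.00845 and 0.0306), and neither call was made with single-sorted green cones. The call of Gucy2e-8804 was lost in 4 of 10 alternatives, also with DESeq2, without the second rod library and without double-sorted green cone library 3, and its log2 difference of 2.52 ranged from 1.73 to 3.97 without 1 library.

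At Rd3 the single call was a weak element. Rd3-9952 read 9.58 and 9.04 CPM in rods, 1.56 and 0 in double-sorted green cones, 2.48 and 0.454 in Nrl-/- photoreceptors and 2.93 and 2.74 in single-sorted ones (log2 2.99, SE 0.74, edgeR adjusted p = 0.0354), and its call was lost with DESeq2 and when either rod library was omitted. It lay in a rod peak only, and 53.0% of its bases are masked as repeats in the reference, which was so for at least 40% of bases in 3.99% of all elements. The elements in introns of Rd3, downstream of its start sites, differed less. Rd3+3430, the brightest, read 109 and 110 CPM in rods, against 61.4 to 127 in the others, and Rd3+1088 read 20.2 and 25.2 in rods and 28.7 to 38.9 in the others, with rods below every other library and a log2 difference of -0.56 that did not pass.

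Some promoters in these windows belong to other genes. Nxt2, next to Gucy2f, had 37.1 CPM of RNA in rods and 58.3 CPM in Nrl-/- photoreceptors (log2 -0.65). Mrps10, next to Guca1b, had 20.8 and 34.0 CPM (log2 -0.71). In the Rd3 window, Slc30a1 had 11.1 and 7.01 CPM (log2 0.67), and 1700034H15Rik had 1.33 and 0.744 CPM (log2 0.84). None of these genes passed the test, and Mir3473c, also near Rd3, had too few reads for it. The Nxt2 promoter, Gucy2f-31710, read 42.1 and 31.2 CPM in rods, against 10.9 to 26.8 CPM in the others, with a log2 difference of 0.76 that did not pass.

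In the peak lists, which the authors called per cell type with no separate list per library, 33 of the 36 elements overlapped a rod peak, 26 a double-sorted green cone peak, 32 a single-sorted green cone peak and 32 an Nrl-/- peak. A peak was present in all 4 lists at 23 elements. Rd3-9952 and Gucy2e-21504 were in the rod list only, and Rd3+1088, Rd3+20944 and Guca1a-24930 were the 3 that were not in it.

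**Figure D5:**
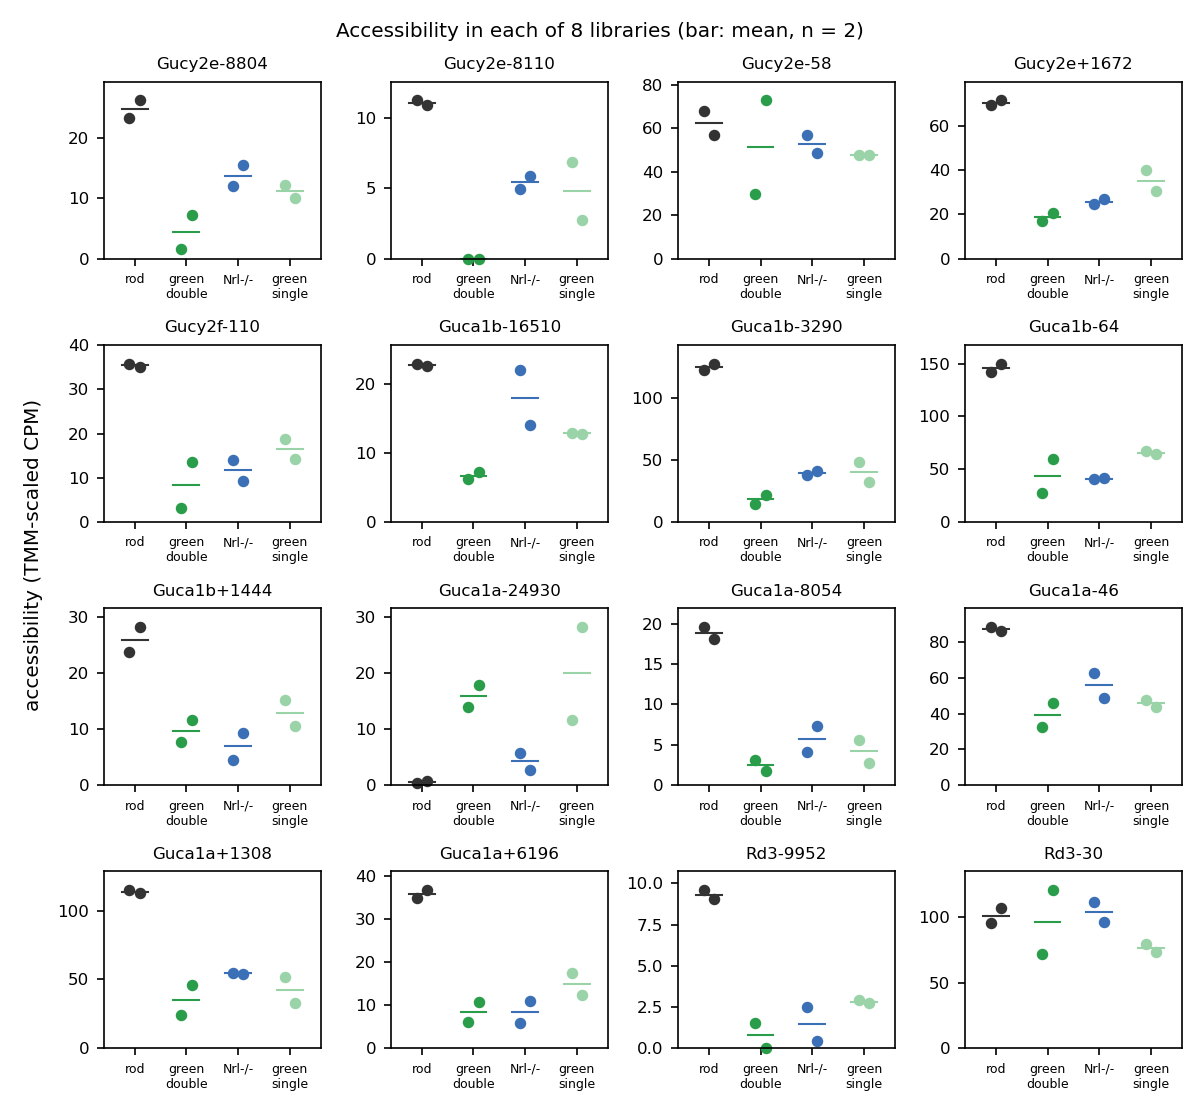
Accessibility in CPM at 16 elements in each of 8 ATAC-seq libraries, by cell type, with a bar at the mean of each 2 libraries. Both rod libraries lie above the other 6 at Guca1b-3290, Guca1b-64, Guca1a+6196 and Gucy2f-110, below them at Guca1a-24930, and among them at Gucy2e-58 and Rd3-30.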

How the data were processed

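RNA was counted in 6 libraries and open chromatin in 8, grouped by the labels of the deposited samples. The deposited tables hold raw counts per gene and per 200 bp element on GRCm38, with no normalization by the authors. Per the submitters' processing notes, the tools were STAR 2.4.2a and HTSeq 0.6.1p1 for RNA-seq, and Bowtie2 2.2.3, SAMtools 1.3, Picard 1.121, MACS2 2.1.0, HOMER 4.8 and bedtools 2.24.0 for ATAC-seq, with only short inserts kept. The RNA kit does not mark strand, and the strand setting of counting is not given in the sources used here. The fold enrichment in the deposited peak lists is a ratio that the authors' caller gave for pooled replicates. Reads without a gene, 41.3% to 49.2% of each RNA library, were left out. Limits from 3 counts cover counting error only.

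After TMM scaling, all genes or elements kept by filterByExpr were fitted by edgeR 4.0.16 in R 4.3.3 with no covariate and tested against a log2 change of 1 with Benjamini-Hochberg adjustment, at 0.05 for RNA and 0.1 for ATAC-seq. Single-sorted green cones entered only as an alternative. A promoter spans 1000 bp upstream to 100 bp downstream of a start site. Genes named were the 5 members, the 3 nearest in pattern to each and, per list, the largest called change in each direction, and Guk1, Gpsm2 and Plekha2 were given levels as examples. Elements named were those in or at the promoter of a member, those called in any comparison and the brightest at each gene. Some genes that these rules name are not reported here. The members and lists were chosen with earlier results of these data known. Alternatives were DESeq2 1.42.0, other scalings and filters, other windows, a test against 0 and leaving out each library. Sequences and annotation are from GRCm38, and the fits were tested on simulated data.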

Additional observations from a re-analysis of the deposited data

Results flagged for a closer look

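The main comparisons leave out the single-sorted green cones, and in them Guca1a-24930, the element that was lower in rods, carried signal above the rod level. Their 2 libraries read 11.7 and 28.3 CPM, against 0.417 and 0.753 CPM in rods, and the log2 difference of rods over single-sorted green cones was -4.99 (SE 0.57, edgeR adjusted p = 2.29e-06). The higher of these values was also above both double-sorted green cone libraries.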

How the results depend on the processing

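Gucy2f and Guca1b were called in all 12 alternatives, and leaving out each RNA library moved the log2 differences over 0.86 to 1.06 for Gucy2e, 7.38 to 7.92 for Gucy2f, 0.26 to 0.55 for Guca1a, 3.23 to 3.44 for Guca1b and -1.12 to -0.83 for Rd3. Tested against 0, Gucy2e at 0.95 and Rd3 at -0.98 were called, so 1 member was lower. Elements higher in rods over both cone types numbered 3 with DESeq2, 17 against 0, 5 with single-sorted green cones and 3 to 8 without 1 library, and lower ones 2 against 0 and 0 to 1 without 1 library. Over Nrl-/- photoreceptors, 3 were higher with DESeq2, 19 against 0 and 7 to 8 without 1 library, and lower ones numbered 0 with DESeq2 or with the study's processed reads as library sizes, 3 against 0 and 0 to 1 without 1 library. Over double-sorted green cones, 2 were higher with DESeq2, 19 against 0, 3 with single-sorted ones, and 3 (without the second rod library) to 20 (without double-sorted green cone library 4). For green cones over Nrl-/- photoreceptors, 1 was higher with single-sorted ones, and 0 to 3 were lower without 1 library, 3 being without double-sorted green cone library 4. A window of 100 kb held 70 elements. Without 1 library, Rd3-30 ranged from -0.093 to 0.11 and Rd3+3430 from -0.0073 to 0.37 for rods over both cone types. Rd3-30 turned below 0, to -0.055, -0.027 and -0.093, without the second rod, the second Nrl-/- and double-sorted green cone library 3, and Rd3+3430 without the latter, and the cause was not tested. The study's processed reads as library sizes shifted the median log2 difference of all elements by 0.44, 0.53 and 0.41 in the 3 rod comparisons, and the share of calls that were higher in rods from 18.0%, 23.3% and 25.6% to 35.0%, 38.0% and 40.0%. Replicate numbers gave no clear pairing of the RNA libraries, with same-number correlations of 0.21, 0.11 and -0.07 and different-number ones of -0.29 to 0.24. In ATAC-seq the same-number value was 0.06. With 2 libraries a group the different-number value is fixed at its negative, so it cannot decide pairing. A replicate block gave 0.96, 7.69, 0.40, 3.32 and -0.96 for the 5 genes, with 2 higher and 0 lower, and 8 higher and 1 lower element over Nrl-/- photoreceptors. With 2 libraries a group and 1062400 reads in the shallowest, elements of a few CPM are the least certain.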
